A study of Mus musculus with 2 samples.

Results

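Genes of neuropeptide signalling and secretion, 8 of the 17408 genes in the table, were followed across mouse cells at day 16 of reprogramming: Tac2, Penk, Nmu, Pcsk1n, Ramp3, Pcp4, Ntrk2 and Rtn1. They were selected on these same cells, because they led several groups of cells that had not become pluripotent, so their levels are a description and carry no test. Neuropeptides are made as long precursors that pass through the secretory pathway, where convertases cut them at pairs of basic residues, a carboxypeptidase trims the ends and an amidating enzyme finishes many of them before release. They are best known from neurons and endocrine cells, but fibroblasts, epithelia and placental cells are also known to make some of them. The members cover several steps: Tac2, Penk and Nmu encode precursors (of neurokinin B, the enkephalins and neuromedin U), Pcsk1n encodes proSAAS, an inhibitor of the convertase Pcsk1, Ramp3 encodes a partner of the calcitonin-receptor-like receptor, Ntrk2 encodes TrkB, the receptor of brain-derived neurotrophic factor, Pcp4 encodes a small calmodulin-binding peptide, and Rtn1 encodes a reticulon of the endoplasmic reticulum.

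Mouse embryonic fibroblasts carrying STEMCCA, which expresses Pou5f1, Sox2, Klf4 and Myc from a cassette switched on with doxycycline, were kept in embryonic stem cell medium with LIF and ascorbic acid, and their RNA was counted by droplet single-cell 3' RNA-seq, in which a unique molecular identifier (UMI) marks each molecule. The 2 libraries form 1 group, are numbered replicate 1 and replicate 2 by accession order, and held 3109 and 3914 unsorted cells. There was no untreated or uninduced control. The study's text says that these cells came from 2 STEMCCA mouse systems, and no label ties a library to a system, so differences between mouse systems, cultures and libraries cannot be told apart. Cells had a median of 15625 and 14292 UMIs, and 12 cell barcodes occurred in both libraries. An exact two-sided test by flipping signs over 2 libraries has a smallest p of 0.5, so each value is given per library.

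Tac2 lies on chromosome 10 (chr10:127724478-127731768, plus strand), Penk on chromosome 4 (chr4:4133531-4138819, minus), Nmu on chromosome 5 (chr5:76333495-76363788, minus) and Pcsk1n on the X chromosome (chrX:7919822-7924410, plus). Ramp3 lies on chromosome 11 (chr11:6658521-6677475, plus), Pcp4 on chromosome 16 (chr16:96467606-96525793, plus), Ntrk2 on chromosome 13 (chr13:58806569-59133970, plus) and Rtn1 on chromosome 12 (chr12:72211752-72409054, minus). These are whole protein-coding genes on GRCm38 in GENCODE M21. The stretches of coding sequence that give the precursors their peptides are shown because they are what makes Tac2, Penk and Nmu peptide precursors. Capitals mark the codons of the flanking basic pairs, at which convertases cut, and in Tac2 and Nmu also the glycine codon that gives the amide.
Penk, met-enkephalin (codons 98 to 106): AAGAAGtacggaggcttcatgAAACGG
Penk, leu-enkephalin (codons 229 to 237): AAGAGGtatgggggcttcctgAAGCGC
Tac2, neurokinin B (codons 80 to 94): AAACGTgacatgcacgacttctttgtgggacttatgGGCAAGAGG
Nmu, neuromedin U (codons 142 to 169): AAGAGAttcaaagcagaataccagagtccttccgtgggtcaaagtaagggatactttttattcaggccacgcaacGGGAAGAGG
The Penk reading frame of 268 codons held 12 basic pairs, with 6 copies of met-enkephalin and 1 of leu-enkephalin after such a pair. The Tac2 frame of 116 codons held 3 pairs and the Nmu frame of 174 codons held 4.

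All cells were clustered together with the members, their pathway genes and the X-linked and Y-linked genes left out (708 genes), so that the members did not shape the groups in which they are compared. This gave 17 clusters, of which 12 had at least 30 cells in both libraries and were compared. Clusters whose markers fitted a class are named as such, and the others are called by their leading genes. These names pass over the members, their pathway genes and genes with Rik or Gm names. Members were themselves among the leading genes, with Tac2 first in Dmrtc2/Rnase1 and Pcp4 first in Nxpe2/Thbd. The compared clusters were the pluripotent-like (146 and 390 cells, 12 of 12 markers), the fibroblast-like Spp1/Mmp3 (253 and 175 cells), the myofibroblast or smooth muscle-like Mylk/Sprr2k (181 and 98 cells), 3 clusters with markers of S or M phase (Tk1/Tcf19, Hist1h1b/Neil3 and Cenpa/Cenpf), and Dmrtc2/Rnase1, Nxpe2/Thbd, Dkk2/Sostdc1, Perp/Krt19, Rgcc/Rarres2 and Mmp11/Wfdc17. An epithelial-like cluster led by Gpx2 and Epcam had 63 cells in replicate 1 and 7 in replicate 2, so its values rest on replicate 1. Clusters differed in their share of the libraries, for example Dmrtc2/Rnase1 with 5.21% of replicate 1 and 15% of replicate 2. Levels below are the mean over cells of UMIs per 10000 UMIs of the cell. Levels of different genes are not compared with each other as amounts of RNA beyond this 3' count.

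The members did not share a single cell group. Among the compared clusters Tac2, Nmu and Ramp3 were highest in Dmrtc2/Rnase1, Pcp4 and Ntrk2 in Nxpe2/Thbd, Penk in the fibroblast-like cluster, Pcsk1n in Dkk2/Sostdc1 and Rtn1 in Hist1h1b/Neil3. The highest cluster was the same in both libraries for 8 of 8 members, for 7 when the cells were clustered at a resolution of 0.5 or 2 and for 5 with 4000 variable genes. Over the 12 clusters Spearman's rho between the libraries was 0.988 for Nmu, 0.965 for Tac2, 0.958 for Ramp3, 0.944 for Pcsk1n, 0.776 for Rtn1, 0.755 for Penk, 0.734 for Ntrk2 and 0.594 for Pcp4. The points share their libraries. Nmu, with the highest rho, had 513 and 523 UMIs in all, beside 490 and 853 for Ntrk2 and 572 and 234 for Rtn1. What sets the differences in rho was not tested.

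**Figure D1:**
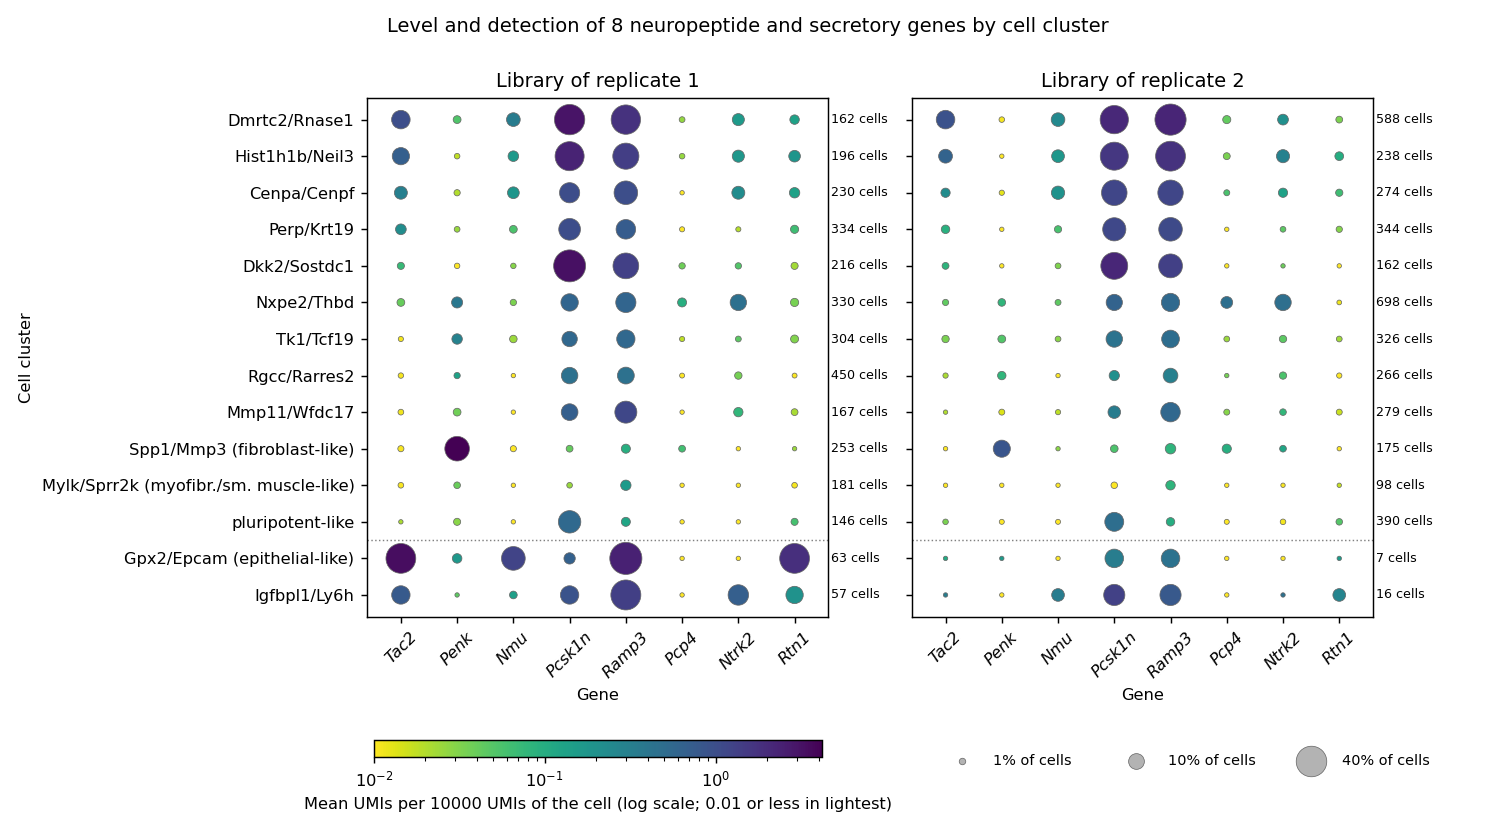
Level and detection of the 8 genes in the 12 compared clusters and, under the dotted line, in the epithelial-like and Igfbpl1/Ly6h clusters, with replicate 1 on the left and replicate 2 on the right. Colour gives the mean UMIs per 10000 UMIs on a log scale and dot area the share of cells with a UMI after each cell was thinned to 3000 UMIs. Tac2, Nmu, Pcsk1n and Ramp3 stand out together in the upper rows, and Penk stands out in the fibroblast-like row alone among the compared clusters.

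Tac2, the neurokinin B precursor, was at 0.998 and 0.923 UMIs per 10000 in the Dmrtc2/Rnase1 cells of replicates 1 and 2 (mean 0.961 ± 0.0529, SD, n = 2 libraries). It came to 0.687 and 0.628 in Hist1h1b/Neil3, 0.316 and 0.229 in Cenpa/Cenpf and 0.224 and 0.0914 in Perp/Krt19. In each of the other 8 compared clusters it was below 0.1 in both libraries. The 3 clusters with cell cycle markers thus differed among themselves, since Tk1/Tcf19, with S phase genes like Hist1h1b/Neil3, had 0.011 and 0.0339. In the pluripotent-like cells Tac2 was at 0.0213 and 0.0336, and in the myofibroblast or smooth muscle-like cells at 0.0106 and 0.00236. The order of neighbouring clusters could not be told apart by the 2 libraries in 4 of 11 steps.

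Even in its leading cluster Tac2 was found in a minority of cells. After thinning to 3000 UMIs a Tac2 UMI was found in 14.2% (exact Clopper-Pearson 95% interval 9.22 to 20.5) and 14.3% (11.6 to 17.4) of Dmrtc2/Rnase1 cells. The same share was 0.552% (0.014 to 3.04) and 0% (0 to 3.69) in the myofibroblast or smooth muscle-like cells, the compared cluster with the lowest Tac2 level. Free RNA itself was not measured. Before thinning the median depths were 14613 and 12991 UMIs in the first cluster and 16014 and 14588 in the second. Such intervals cover counting error only. Of the Dmrtc2/Rnase1 cells, 12 and 22 held 10 or more Tac2 UMIs, and those with any had a median of 5 and 3. Before thinning 33 and 127 of these cells (20.4% and 21.6%) had a Tac2 UMI, so those with 10 or more were a minority of them.

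The highest Tac2 level of any cluster in replicate 1 was in the epithelial-like cells, at 3.44 UMIs per 10000 (3.17 without the highest cell, which had 42 UMIs). There 38.1% (26.1 to 51.2) of 63 cells had a Tac2 UMI after thinning. In replicate 2 the 7 epithelial-like cells held 1 Tac2 UMI in all, a level of 0.106. Nmu and Rtn1 were likewise high there in replicate 1, at 1.25 and 1.86, against 0 and 0.157 in replicate 2, where 0 UMIs are compatible with a level of up to 0.173 for 3 counts in the cluster. Ramp3 was at 2.44 and 0.436. Whether the 7 cells of replicate 2 are the same kind of cell as the 63 of replicate 1 could not be told at this number.

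Nmu, the neuromedin U precursor, followed Tac2 over the clusters. It had 0.343 and 0.245 UMIs per 10000 in Dmrtc2/Rnase1 (mean 0.294 ± 0.0696, SD, n = 2), 0.18 and 0.193 in Cenpa/Cenpf and 0.165 and 0.171 in Hist1h1b/Neil3. All 3 clusters were also the highest for Tac2. In Perp/Krt19 it was at 0.0552 and 0.0575, and in the pluripotent-like cells 2 and 6 UMIs were counted in all, a level of 0.00356 and 0.00441. The myofibroblast or smooth muscle-like cells held 0 Nmu UMIs in either library, which allows a level of up to 0.00956 and 0.0191. Over the 24 profiles of 12 clusters in both libraries Pearson's r of log2(level + 0.1) between Tac2 and Nmu was 0.95.

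Penk, the enkephalin precursor, had a different place. It was highest in the fibroblast-like cluster, at 4.11 UMIs per 10000 in replicate 1 and 0.851 in replicate 2 (mean 2.48 ± 2.31, SD, n = 2). Next came Nxpe2/Thbd with 0.379 and 0.0799, Tk1/Tcf19 with 0.293 and 0.0511 and Rgcc/Rarres2 with 0.129 and 0.081. The lowest were Dkk2/Sostdc1, with 0.00782 and 0.00756, and Perp/Krt19, with 0.0251 and 0. That cluster of replicate 2 held 0 Penk UMIs, which allows a level of up to 0.00453. The fibroblast-like cluster held 78.4% of all Penk UMIs of replicate 1 in 8.14% of its cells, and 57.3% of those of replicate 2 in 4.47%. Neighbouring clusters overlapped in 9 of 11 steps of the order.

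Within the fibroblast-like cells Penk was carried by few of them. A Penk UMI was found after thinning in 25.7% (20.4 to 31.5) and 12% (7.58 to 17.8) of cells, against 1.1% (0.134 to 3.93) and 0% (0 to 3.69) of the myofibroblast or smooth muscle-like cells. Before thinning the fibroblast-like cells had a median depth of 13449 and 11463 UMIs. The highest cells held 375 and 285 Penk UMIs in replicate 1 and 30 and 27 in replicate 2. Without the single highest cell the level was 3.61 and 0.796. There were 30 fibroblast-like cells with 10 or more Penk UMIs in replicate 1 and 5 in replicate 2.

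Pcsk1n, the proSAAS gene, was the most widely found member together with Ramp3. It was at 3.25 and 2.17 UMIs per 10000 in Dkk2/Sostdc1 (mean 2.71 ± 0.766, SD, n = 2), 3.03 and 2.16 in Dmrtc2/Rnase1 and 2.34 and 1.63 in Hist1h1b/Neil3. These clusters overlapped between the libraries and their order is not set. Cenpa/Cenpf and Perp/Krt19 lay near 1, with 1.02 and 1.18 in the former and 1.03 and 1.13 in the latter. At the low end were the fibroblast-like cells with 0.0419 and 0.0553 and the myofibroblast or smooth muscle-like cells with 0.0254 and 0.00679. After thinning a Pcsk1n UMI was found in 44% (37.3 to 50.9) and 30.9% (23.9 to 38.6) of Dkk2/Sostdc1 cells, and in 0.552% (0.014 to 3.04) and 1.02% (0.0258 to 5.55) of myofibroblast or smooth muscle-like cells. The Dkk2/Sostdc1 cells had a median depth of 12649 and 12466 UMIs before thinning.

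In the pluripotent-like cells Pcsk1n was at 0.544 and 0.49, well above the fibroblast-like level. Its last 135 bases overlap the end of Eras, a Ras gene of embryonic stem cells on the opposite strand, and Eras was at 0.472 and 0.459 in the pluripotent-like cells and at or below 0.00657 in each other compared cluster. How the counting treated strand is not stated in the methods or labels, and whether reads of Eras enter the Pcsk1n count was not tested. Pcsk1n had 4.4 and 5.03 UMIs for each Ramp3 UMI in the pluripotent-like cells, against 0.111 to 2.31 in the other compared clusters. Of the other members, Penk, Nmu, Ramp3, Pcp4 and Ntrk2 overlap genes that have no row in this table, while Tac2 and Rtn1 overlap none.

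Ramp3, which lets the calcitonin-receptor-like receptor respond to adrenomedullin, was at 1.78 and 2.26 UMIs per 10000 in Dmrtc2/Rnase1 (mean 2.02 ± 0.334, SD, n = 2), 1.39 and 1.77 in Hist1h1b/Neil3 and 1.34 and 1.33 in Dkk2/Sostdc1. It was at 0.121 and 0.0981 in the pluripotent-like cells, 0.161 and 0.0826 in the myofibroblast or smooth muscle-like cells and 0.0942 and 0.0833 in the fibroblast-like cells. The last of these lay below the pluripotent-like cells in both libraries, the other neighbours overlapped, and every other compared cluster was at 0.313 or more. After thinning a Ramp3 UMI was found in 37% (29.6 to 45) and 41.8% (37.8 to 45.9) of Dmrtc2/Rnase1 cells, and in 2.77% (1.12 to 5.62) and 4% (1.62 to 8.07) of fibroblast-like cells. Over the 24 profiles Ramp3 and Pcsk1n had an r of 0.88.

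Ntrk2, the TrkB receptor, was at 0.467 and 0.471 in Nxpe2/Thbd (mean 0.469 ± 0.00238, SD, n = 2), the closest agreement of any leading value. Hist1h1b/Neil3 followed with 0.173 and 0.301, Dmrtc2/Rnase1 with 0.159 and 0.205 and Cenpa/Cenpf with 0.23 and 0.132, and these 3 overlapped. A Ntrk2 UMI was found after thinning in 10.9% (7.76 to 14.8) and 11% (8.8 to 13.6) of Nxpe2/Thbd cells and in 0% (0 to 2.49) and 0.513% (0.0622 to 1.84) of pluripotent-like cells. Before thinning these clusters had a median depth of 12204 and 11390 UMIs, and of 28768 and 26128 UMIs. The rare Igfbpl1/Ly6h cluster, with 57 and 16 cells, had a Ntrk2 level of 0.684 and 0.458. In the epithelial-like cells 0 Ntrk2 UMIs were counted, which allows up to 0.0201 and 0.173.

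Pcp4, the calmodulin-binding peptide named after Purkinje cells, was highest in the same Nxpe2/Thbd cluster but far less evenly. It was at 0.0961 in replicate 1 and 0.474 in replicate 2, where a single cell held 159 of the 626 Pcp4 UMIs of the library and the next 54. Without the highest cell of each library the levels were 0.0702 and 0.423. The fibroblast-like cluster came next with 0.0625 and 0.0945, its higher value just under the lower value of Nxpe2/Thbd. After thinning a Pcp4 UMI was found in 2.73% (1.25 to 5.11) and 5.3% (3.76 to 7.23) of Nxpe2/Thbd cells, and in 0% (0 to 2.02) and 0% (0 to 3.69) of myofibroblast or smooth muscle-like cells. Pcp4 and Ntrk2 therefore had the same leading cluster, and their r over the 24 profiles was 0.64.

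Rtn1, the reticulon, had the flattest pattern. It was at 0.178 and 0.0993 in Hist1h1b/Neil3 (mean 0.139 ± 0.0559, SD, n = 2), 0.131 and 0.0654 in Cenpa/Cenpf, 0.131 and 0.0331 in Dmrtc2/Rnase1 and 0.0599 and 0.05 in the pluripotent-like cells. In 10 of 11 steps the neighbouring clusters overlapped, so no order is set beyond the ends. A Rtn1 UMI was found after thinning in 5.1% (2.47 to 9.18) and 2.52% (0.931 to 5.41) of Hist1h1b/Neil3 cells and in 0% (0 to 1.45) and 0% (0 to 2.09) of fibroblast-like cells, with a median depth before thinning of 18725 and 17789 UMIs in the former. Only in the epithelial-like cells of replicate 1 did Rtn1 exceed these levels by a wide margin, at 1.86.

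For most members a small share of cells held much of the transcript. The 1% of cells with most UMIs of the gene held 74% and 81.5% of the Penk UMIs, 83.8% and 74.4% of those of Pcp4, 48.2% and 51% of those of Tac2 and 40% and 45.7% of those of Rtn1. For genes with a mean of 0.02 to 0.3 the median of this share was 15.2% (7574 genes) and 15.9% (7721 genes), and the 95th percentile was 37.6% and 38.3%. Tac2, Pcp4 and Rtn1 were thus above that percentile in both libraries. Pcp4 in replicate 1 (mean 0.0253) and Rtn1 in replicate 2 (mean 0.033) lay near the low end of that range, however. Only 49 cells of replicate 1 had a Pcp4 UMI, and the top 1% is 32 cells. Of the cells of replicate 2 with Rtn1, 79.6% had 1 UMI. Such sparse genes reach a high share without high counts, so these excesses are not read as concentration. Nmu, at 40.4% and 31.7%, was above it in replicate 1, and Ntrk2, at 37.1% and 30.4%, in neither. Penk had a mean of 0.441 in replicate 1, and genes with a mean of 0.3 to 1.2 had a median share of 7.13% and a 95th percentile of 13.6%. The top cells of Pcsk1n held 16.3% and 13.5% of its UMIs, above that percentile in replicate 1 and just below the 13.6% of replicate 2. Those of Ramp3 held 10.7% and 11.1%, below it in both libraries. This measure uses the same cells on which the members were selected, so it describes them and does not test them.

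**Figure D2:**
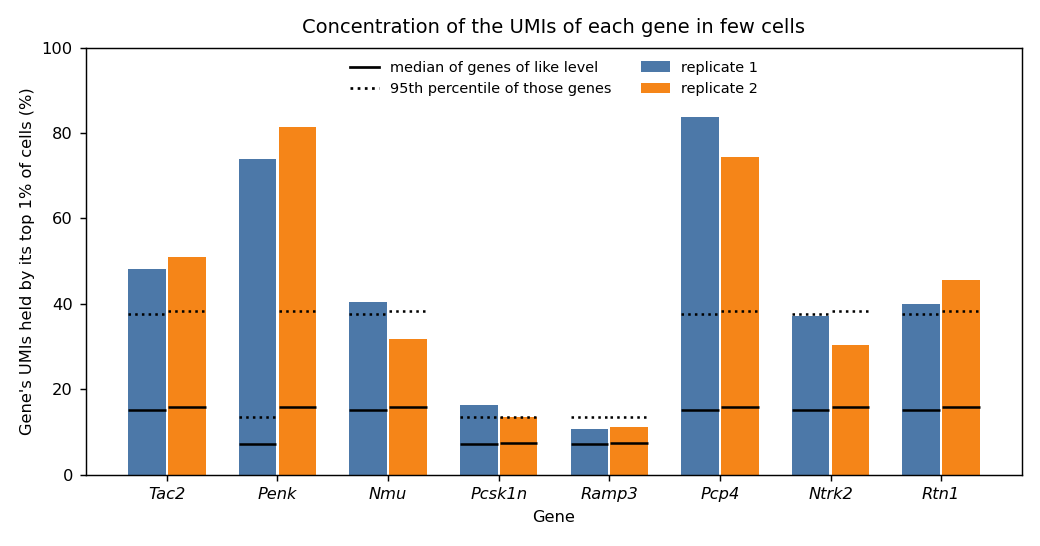
Share of each gene's UMIs held by the 1% of cells with most of them (bars, percent, 32 cells in replicate 1 and 40 in replicate 2), with the median (solid line) and 95th percentile (dotted line) of the genes in the same range of mean level. The bars of Penk and Pcp4 lie between 74% and 83.8%, and those of Ramp3 at 10.7% and 11.1%.

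The members were next set against the pluripotent-like cells, the comparison from which they were picked. Taking all cells together, 5 members had a mean of 0.1 or more, and 3 of these 5 were higher by 2-fold or more in the other cells of both libraries, against a background of 15.0% of 7131 genes, and 0 were higher in the pluripotent-like cells, against 6.35%. Because the choice of members used this contrast, nothing is read from the count. The log2 of (level + 0.1) in the other over the pluripotent-like cells was 2.03 and 2.46 for Ramp3, 1.54 and 1.37 for Tac2 and 1.06 and 1.38 for Ntrk2. The 2 tested members outside that count were Pcsk1n, just under the limit at 0.80 and 0.88, and Penk, at 2.12 and 0.77. Below the level minimum were Nmu with 0.87 and 0.87, Pcp4 with 0.28 and 1.04 and Rtn1 with 0.29 and -0.20. Ntrk2 was the member just inside the limit.

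Between the libraries, which may also differ in mouse system, 1 of the 5 tested members, Penk, differed by 2-fold or more, against a background of 0.252% of 7131 genes (18 genes). Its mean over all cells was 0.441 in replicate 1 and 0.0671 in replicate 2, a log2 of -1.69 for replicate 2 over replicate 1, and it was lower in replicate 2 in 12 of 12 clusters. With equal weight to each cluster this was -1.45, and without the epithelial-like and fibroblast-like clusters -0.72, which is no longer 2-fold. In the fibroblast-like cluster, which held most Penk UMIs, both its share of cells (8.14% and 4.47%) and the level in them (4.11 and 0.851) were lower in replicate 2. Pcp4 was higher in replicate 2 in 11 of 12 clusters (log2 0.74) and Rtn1 higher in replicate 1 in 11 of 12 (log2 -0.54), both at low levels. For Tac2, Nmu, Pcsk1n, Ramp3 and Ntrk2 the log2 lay between -0.08 and 0.31.

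**Figure D3:**
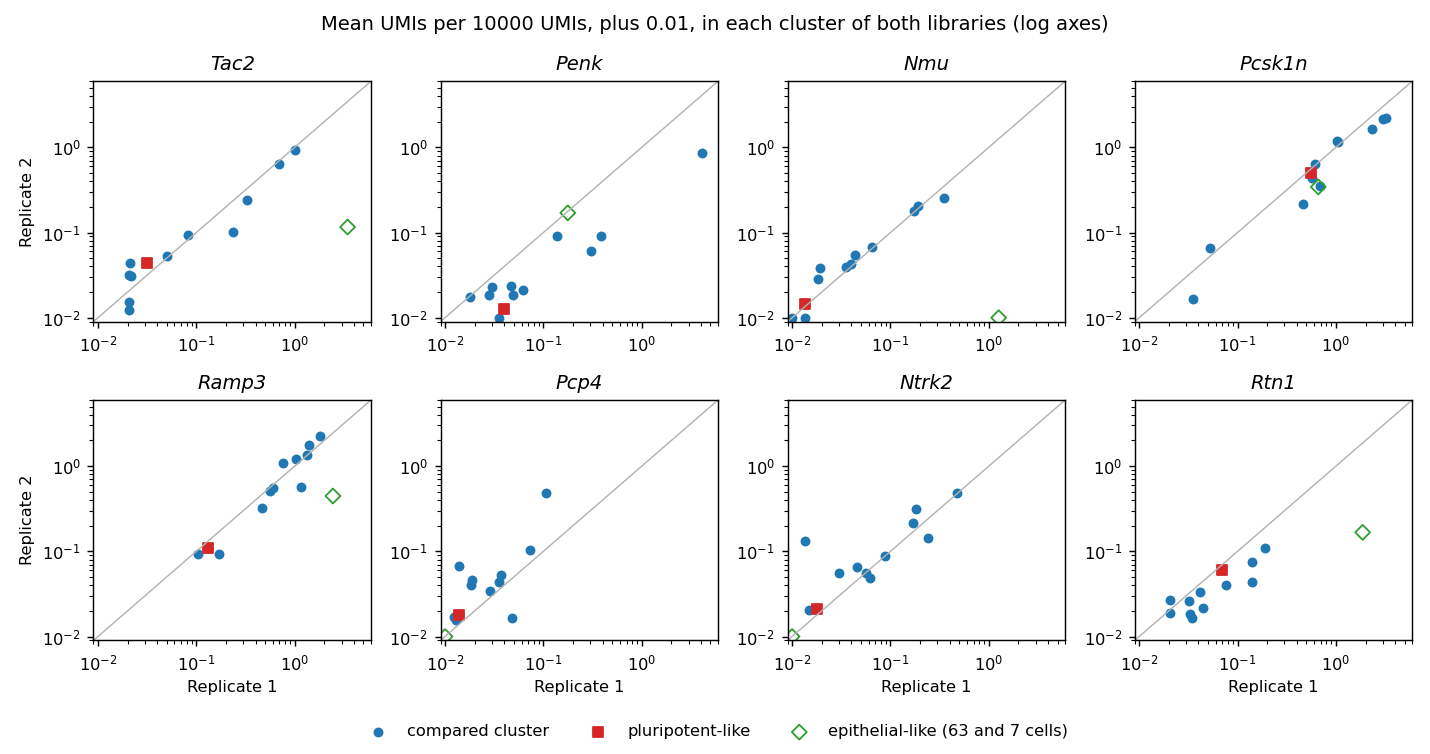
Level of each gene in replicate 1 (horizontal) and replicate 2 (vertical) as mean UMIs per 10000 UMIs plus 0.01 on log axes, with 1 point per compared cluster, the pluripotent-like cluster as a square and the epithelial-like cluster (63 and 7 cells) as an open diamond, and the line of equal levels in grey. Tac2, Nmu, Pcsk1n and Ramp3 follow the line, Penk lies below it, and the diamonds of Tac2, Nmu, Ramp3 and Rtn1 lie far to its right.

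To see whether the members met in the same cells, each cell was thinned to 3000 UMIs and the number of cells with a UMI of both genes was divided by the number that the product of their shares gives. Thinned in this way, 61.9% and 61.1% of cells had no member at all, 28.3% and 29.4% had 1, 59 and 63 cells had 3, and 9 and 6 cells had 4. In 5 of 28 pairs the ratio was 2 or more in both libraries with at least 5 cells in each, against 1 pair without thinning and 2 pairs at 1500 UMIs. No such count is given for pairs of other genes. The members were selected as leading genes of cell groups, so nothing is read from the number of pairs. Tac2 and Nmu met in 16 and 18 cells (ratio 6.17 and 5.61), Tac2 and Rtn1 in 21 and 5 (6.12 and 4.39), Tac2 and Ramp3 in 59 and 65 (2.74 and 2.47), Tac2 and Pcsk1n in 45 and 54 (2.16 and 2.27) and Nmu and Ramp3 in 33 and 41 (2.92 and 2.26). Penk went the other way, with 3 and 3 cells shared with Pcsk1n (0.157 and 0.328) and 9 and 4 shared with Ramp3 (0.455 and 0.395). Pcp4 and Ntrk2, which lead the same cluster, met in 1 and 4 cells, too few to read.

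The ratios of the 5 pairs were smaller within clusters. When the product of shares was taken within each cluster and summed, 0 of 28 pairs were at 2 or more in both libraries, with 1.65 and 2.24 for Tac2 with Nmu and 1.6 and 2.93 for Tac2 with Rtn1. The low ratios of Penk rose by this measure, to 0.384 and 0.73 with Pcsk1n and to 0.852 and 0.708 with Ramp3. Without the epithelial-like cluster 2 pairs with at least 5 cells in each library were at 2 or more in both by the same measure. They were Tac2 with Nmu (2.27 and 2.24) and Tac2 with Rtn1 (2.5 and 2.93). Nmu with Rtn1 also passed the ratio (3.59 and 3.05), but in 6 and 4 cells. Within Dmrtc2/Rnase1 alone Tac2 and Nmu met in 4 and 14 cells (2.35 and 2.28) and Tac2 and Ramp3 in 12 and 40 (1.41 and 1.14). Cells with 3 or more members made up 8.02% and 6.97% of Dmrtc2/Rnase1, 6.12% and 4.2% of Hist1h1b/Neil3 and 28.6% of the epithelial-like cells of replicate 1, but 0% of the pluripotent-like and of the fibroblast-like cells in both libraries. Over all cells 5 pairs were at 2 or more in both libraries also without the 5% of cells with most UMIs. The methods and labels do not say how doublets were treated, and 2 cells in a droplet would also give a shared count. No doublet caller was run, so the part of doublets in these counts was not tested.

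**Figure D4:**
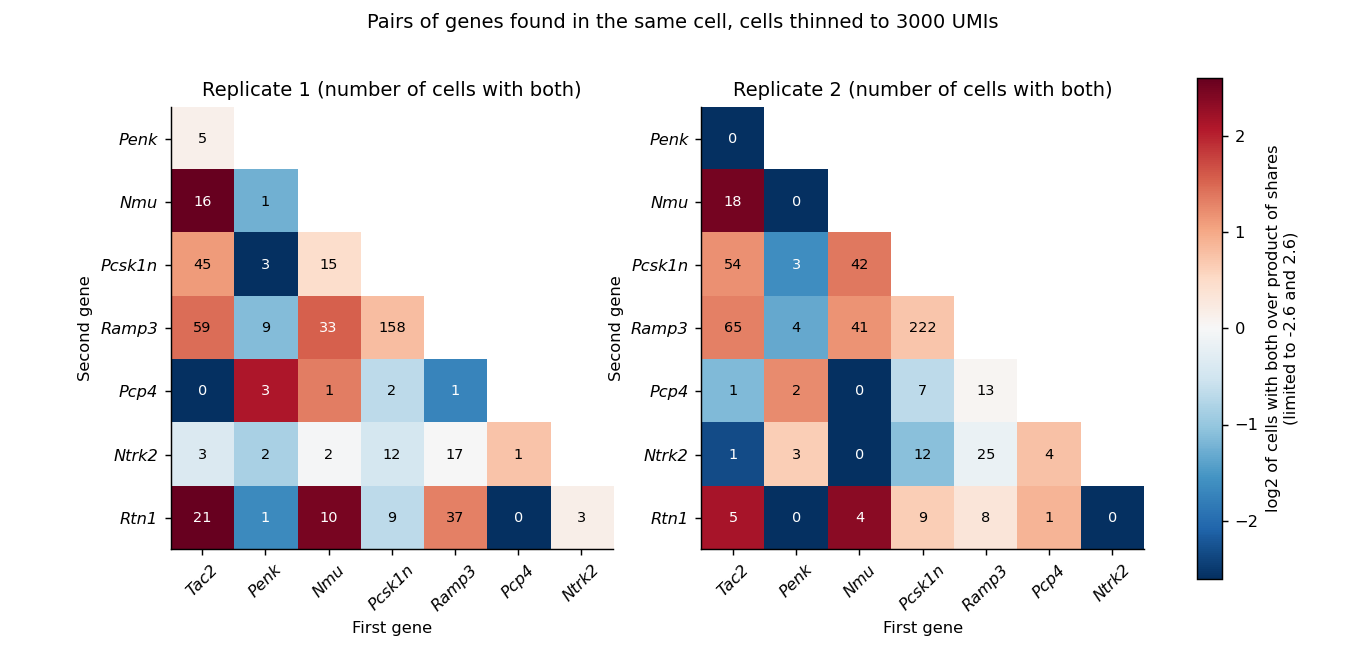
Pairs of members found in the same cell after thinning to 3000 UMIs, replicate 1 on the left and replicate 2 on the right. Numbers are cells with both genes, and colour is the log2 of that number over the product of the shares, limited to -2.6 and 2.6, so that squares with 0 cells take the darkest blue. Tac2 with Nmu and Tac2 with Rtn1 are the darkest red in both libraries among pairs with at least 5 cells, and Penk with Pcsk1n and with Ramp3 is blue in both.

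Some direct partners of the members had few UMIs, and the general processing enzymes had many. The convertase Pcsk1, which proSAAS inhibits, had 0 and 3 UMIs in the libraries, and the convertase Pcsk2 had 45 and 27. Furin, the general convertase of the secretory pathway, was found at 0.337 and 0.255 over all cells. Among the compared clusters it was highest in the myofibroblast or smooth muscle-like cells, at 0.603 and 0.497. Cpe, the carboxypeptidase that trims cut precursors, and Pam, the amidating enzyme, were both highest in the fibroblast-like cells among the compared clusters, where Penk was, with 1.45 and 1.19 for Cpe and 1.2 and 1.03 for Pam, which Nxpe2/Thbd overlapped with 1.15 and 1.05. In Dmrtc2/Rnase1, where Tac2 and Nmu were highest and whose peptides carry an amide, Cpe was at 0.162 and 0.333 and Pam at 0.689 and 0.683. Scg5, the chaperone of Pcsk2, was highest among the compared clusters in Dkk2/Sostdc1 at 0.145 and 0.12, the cluster that also led for Pcsk1n.

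On the receptor side Tacr1 had 13 and 11 UMIs, and Tacr2, Tacr3, the opioid receptors Oprm1, Oprd1 and Oprk1, Nmur1, Nmur2 and Calcr were not analysed here. Calcrl, the receptor with which Ramp3 works, had 29 and 15 UMIs. Among the compared clusters it was highest in the fibroblast-like cells at 0.0609 and 0.0329, where Ramp3 was near its lowest level. Adm, the adrenomedullin precursor, was also highest there among the compared clusters, at 1.24 and 1.45, against 0.0331 and 0.103 in Dmrtc2/Rnase1. Ligand and receptor of the neurotrophin pathway were highest in different compared clusters too. Bdnf, the ligand of TrkB, was at 0.512 and 0.619 in Dkk2/Sostdc1, where Ntrk2 was at 0.052 and 0.039, and at 0.0593 and 0.0789 in Nxpe2/Thbd, where Ntrk2 was highest. Ngfr, the low-affinity neurotrophin receptor, had 259 and 184 UMIs and Ntf5, another TrkB ligand, 24 and 52.

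Lists of pathway genes put the members beside their relatives, with calls for the same 2-fold difference from the pluripotent-like cells. Of 62 neuropeptide precursors, 35 were in the table and 6 reached the level minimum, and of these 4 were higher in the other cells (Tac2, Adm, Edn1 and Prok2), 1 higher in the pluripotent-like cells (Trh) and 1 neither (Penk), beside the background of 15.0% higher in the other cells and 6.35% higher in the pluripotent-like cells. Their median log2 was 1.45, against 0.16 over all genes tested. Edn1, the endothelin precursor, had a log2 of 1.95 and 1.64, and Prok2, the prokineticin precursor, of 1.59 and 1.08. Trh, the precursor of thyrotropin-releasing hormone, had -1.09 and -1.20, with 0.414 and 0.418 UMIs per 10000 in the pluripotent-like cells, but it was also at 0.741 and 0.318 in Dmrtc2/Rnase1, beside Tac2 and Nmu. Among cleavage and modification genes 5 of 6 tested were higher in the other cells, with Pam (2.61 and 2.53), Cpe (2.27 and 2.01), Ctsl (1.97 and 1.54), Furin (1.63 and 1.37) and Cpd (1.15 and 1.08), and the sixth was Pcsk1n.

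Fewer genes of the other lists were called, to be read beside the same 15.0% and 6.35%. Of 3 peptide receptors and partners tested, 2 were higher in the other cells, Ramp3 and its relative Ramp2 (1.72 and 1.84). Among 7 peptidases tested only Ece1, the endothelin-converting enzyme, was higher in the other cells (1.89 and 1.73), and 6 were neither. Mme, the enkephalin-degrading peptidase neprilysin, was in that remainder but was at 1.15 and 0.758 in the fibroblast-like cells and at or below 0.196 in each other compared cluster. Of 2 neurotrophin genes tested 1 was called, Ntrk2, and Bdnf had 0.86 and 0.97. Of granins and vesicle genes 0 of 1 tested and of reticulons and relatives 0 of 5 tested were called in either direction. The lists were drawn up with earlier results of these data known, and nothing particular to a list is read from its count.

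The genes whose pattern over the 24 profiles was most like each member differed by member. For Tac2 they were Dmrtc2 (r = 0.99), Acsbg1 (0.90) and Gbas (0.86), and for Nmu they were Tac2 (0.95), Dmrtc2 (0.94) and Cib2 (0.91). Dmrtc2 and Acsbg1 are themselves leading genes of the cluster in which Tac2 is highest. For Penk they were Comp (0.95), a cartilage matrix protein, Mme (0.92) and Col10a1 (0.91), a collagen of growth plate cartilage. For Pcsk1n they were Wasf1 (0.94), Apela (0.93) and Tst (0.93), and for Ramp3 Bcl11a (0.95), Pllp (0.93) and Gm15987 (0.93). Ntrk2 and Pcp4 shared 2610528A11Rik as the most similar gene, with r = 0.90 and 0.68, followed by Sgk3 (0.83) and Mtss1l (0.81) for Ntrk2 and by Gpcpd1 (0.67) and Fam101a (0.65) for Pcp4. For Rtn1 they were Pou3f1 (0.92), Cox8a (0.87) and Mthfd1 (0.83). The points share clusters and libraries, so these values rank patterns and say nothing of shared control.

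Because the members are best known from neurons, neuronal markers were read in the same cells. Outside the pluripotent-like cluster the summed level of 16 neuron markers was 0.528 and 0.414 UMIs per 10000 in cells with a UMI of Tac2, Penk or Nmu (279 and 258 cells) and 0.579 and 0.509 in cells without. It was lower in cells with Nmu, at 0.181 and 0.116 against 0.583 and 0.512, and in cells with Tac2, at 0.455 and 0.368 against 0.579 and 0.507. In cells with Penk it was higher, at 0.743 and 0.995 against 0.567 and 0.494, and the fibroblast-like cluster as a whole had 0.977 and 1.6. The neuron list reached 7.88 and 5.72 in the pluripotent-like cells, where Stmn2, a tubulin-binding protein, made up 6.69 and 4.85 of it. None of the 16 markers (0) was 2-fold above the other cells in any cluster that led for a member. This call added 0.1 to both levels and counted the pluripotent-like cells among the others. Every marker but Stmn2 had a mean below 0.1 over all cells, so the call was hard to reach and little is read from it. At a resolution of 0.5 the cluster with Tac2 as its first leading gene had 1 of 16.

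Defining markers of mature neurons were near 0: Syp, a synaptic vesicle protein, had 5 and 9 UMIs among 3109 and 3914 cells, Snap25, a fusion protein of the synapse, 6 and 9, Rbfox3, the NeuN antigen, 16 and 28, and Dcx, a marker of young neurons, 12 and 0. Among granins and dense-core vesicle genes Chga had 22 and 69 UMIs, Chgb 0 and 2 and Scg3 6 and 0. Of the Chga UMIs 20 and 67 were in the pluripotent-like cells. Some other genes of that list had more UMIs, with 264 and 383 of Rab27a, 417 and 379 of Scg5, 490 and 575 of Rab3a and 2499 and 2609 of Dnajc5. The granin Scg2 was not analysed here, and these genes do not stand for neuroendocrine markers as a whole, whose summed level is not reported here. A small cluster with glial and neural progenitor markers (15 and 1 cells) had the highest neuron sum, 13.1 in replicate 1, and there Penk, Nmu, Pcp4 and Ntrk2 together had 1 UMI while Tac2 had 3 in each library. In replicate 1 of that cluster Ramp3 was at 0.397 (7 UMIs), Pcsk1n at 0.297 (6 UMIs) and Rtn1 at 0.24 (4 UMIs).

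**Figure D5:**
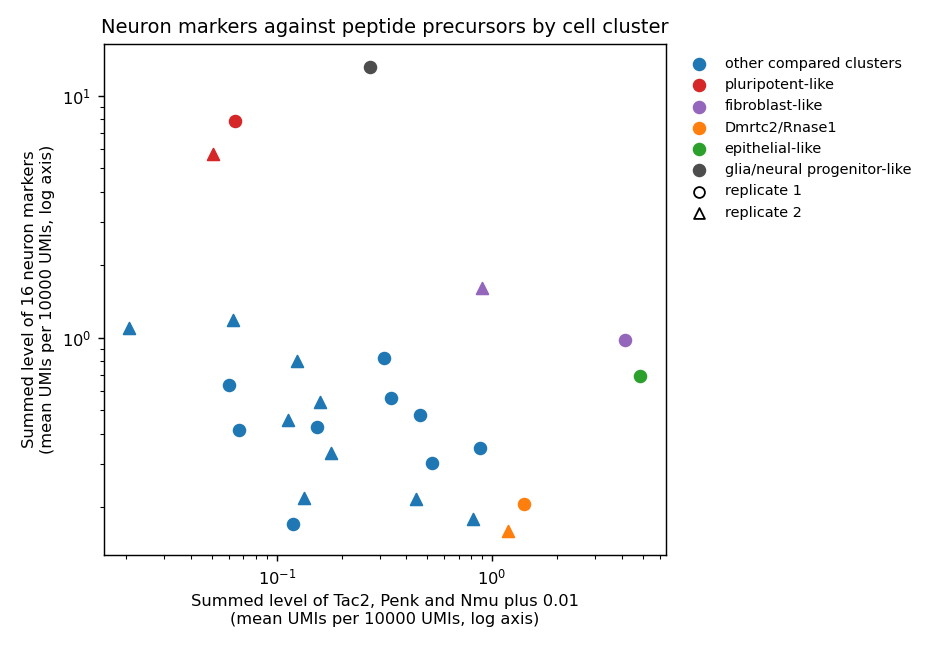
Summed level of 16 neuron markers (vertical) against the summed level of Tac2, Penk and Nmu plus 0.01 (horizontal), both as mean UMIs per 10000 UMIs on log axes, for each compared cluster in replicate 1 (circles) and replicate 2 (triangles) and, for replicate 1, the epithelial-like and glia and neural progenitor-like clusters. The Dmrtc2/Rnase1 points (orange) are far right and low, at 0.205 and 0.158 on the vertical axis, while the pluripotent-like points (red) are far left and high, at 7.88 and 5.72. The fibroblast-like points (purple) are also to the right but higher than the orange ones, at 0.977 and 1.6.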

How the data were processed

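The authors aligned and counted droplet 3' libraries with Cell Ranger (version 2.1.1, mm10), kept cells within limits on detected genes and mitochondrial RNA and normalised in Seurat. What the authors deposited is the natural log of 1 plus each gene's UMIs per 10000 UMIs of its cell. Linear values were whole multiples of the smallest in each cell (100% within 0.01), so counts, taken to be UMIs, were recovered: 54145377 and 64654306 in all, 4753 to 60990 per cell. Cells were assigned by barcode suffix, with 0 columns unassigned, and no doublet caller was run.

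Clustering (scanpy version 1.11.5, leidenalg version 0.10.2, Python version 3.11.15) used 2000 variable genes, 30 components, 15 neighbours and resolution 1. A cluster took a class name with at least 3 and 50% of its markers 2-fold up. Neighbouring clusters overlapped where the library values interleaved. Calls used log2(mean + 0.1) with a mean of at least 0.1 and 2-fold in both libraries. No test was made, because the members were selected on these cells. The exact sign-flip test over 2 libraries has a smallest p of 0.5. Members and lists were chosen with earlier results of these data known. Named genes were the members, their fixed partners, up to 5 called genes a list and the 3 most similar genes of each member. Mme, Eras, Ramp2, the other processing enzymes by cluster and single marker genes were named after their values were seen. Alternatives changed the clustering, thinning, pseudocount, level minimum and cells used. The summed level of neuroendocrine markers rests on an item not reported here and was left out.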

Additional observations from a re-analysis of the deposited data

How the results depend on the processing

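The number of members with the same leading cluster in both libraries was 8, with 7 at resolution 0.5 and 2, and 5 with 4000 variable genes. The 3 members lower in pluripotent-like cells became 0 with a pseudocount of 1, as did the 1 that differed between libraries, which also became 0 without the epithelial-like and fibroblast-like clusters (an alternative added after seeing the data). The mean share of cells with a Tac2, Penk or Nmu UMI was 7.87%, 19.5% without thinning and 4.59% at 1500 UMIs. The 5 pairs at 2-fold became 1 without thinning, where shares are higher, and 2 at 1500 UMIs. Within clusters, with at least 5 cells in each library, the 0 pairs became 2 without the epithelial-like cluster (also added later). The cause was not tested. The neuron-list difference of -0.0723 was -0.136 without thinning. Rtn1 in other over pluripotent-like cells ranged from -0.20 to 0.29 (without replicate 1 and replicate 2) and turned negative without the epithelial-like and fibroblast-like clusters (-0.09, added later). The other 36 main and 180 single-gene values stayed within 1.5 times or the spread between libraries, but without those clusters the log2 of replicate 2 over replicate 1 changed sign within that spread for Tac2 (-0.08 to 0.19) and Nmu (-0.03 to 0.15). Another 34 single-gene values moved, mostly with the pseudocount. Leaving out either library gave 3 to 4 members lower in pluripotent-like cells, 6 to 7 pairs and shares of 6.69% to 9.04%. No paired analysis was possible because there is 1 group of samples. The pluripotent-like contrast was taken within each library. Low counts limit Nmu, Pcp4 and Rtn1 most.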
